A study of Rattus norvegicus with 8 samples.

Results

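Nanoceria-treated and untreated H9c2 cells were compared at normal gravity, on 5 ground arrays of the 8 in the series. The arrays were chosen by their labels, 3 from cultures given nanoceria (replicates 1, 2 and 3) and 2 from untreated cultures (replicates 1 and 3). Untreated replicate 2 was not analysed here, and the 3 arrays from space entered no contrast other than 1 test of the difference between regimes. Genes are described across all 15037 that carry a symbol, which stand on 15049 of the 23188 probe sets, and the other 8139 probe sets were tested but not named.

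H9c2 is an established myoblast line from embryonic rat heart that can form skeletal muscle-like myotubes, so all 5 arrays share 1 genetic background. Cells of all 5 samples had been seeded at 35000 per square centimetre and kept in a low-serum differentiation medium. Their ground run repeated the temperature course logged in flight, with a pouch preheated to 27 °C, an incubator at 37 °C from day 7 and fixation on day 10. Treated cultures received 100 µg/ml of cerium oxide nanoparticles coated with fetal bovine serum, and untreated cultures received none. From each culture 30 ng of total RNA went onto its own rat Clariom S Pico array. Nothing in the labels says whether the replicates came from separate cell stocks, so any p-value here reflects only how far these samples spread, which may be partly technical.

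Nanoceria is studied in muscle because cerium oxide particles can switch between oxidation states and so scavenge reactive oxygen species. Cells answer oxidants through NRF2, a transcription factor that is held by KEAP1 and CUL3 and that, once released, switches on glutathione synthesis and detoxifying enzymes through antioxidant response elements. Myoblasts that leave the cell cycle switch on the myogenic regulator Myog, fuse into myotubes and build sarcomeres, in which thin filaments of actin, tropomyosin and troponin slide along thick filaments of myosin. SRF, a factor that reads the state of actin through CArG boxes, drives many of the actin genes, and the cell cycle genes that are shut down on exit often carry a CHR element at their start.

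Promoters of 4 genes are printed as examples from the gene groups that the results turn on: sarcomeric actins, a glutathione transferase and a mitotic kinase. The 4 were taken from genes whose promoter holds the motif searched for, so the marked motifs follow from the choice. They come from RefSeq on the build GRCr8 and show the bases around 1 annotated start, mostly upstream of it, on the gene's strand. Capitals mark a CArG box in Acta1 and Actc1, the antioxidant response element core TGACNNNGC in Gsta3 and the CHR element TTTGAA in Plk1. Acta1 lies at chr19:68784145-68784444 (minus strand), Actc1 at chr3:121271778-121272077 (minus strand), Gsta3 at chr9:31154739-31155038 (plus strand) and Plk1 at chr1:186147408-186147707 (plus strand).
Acta1: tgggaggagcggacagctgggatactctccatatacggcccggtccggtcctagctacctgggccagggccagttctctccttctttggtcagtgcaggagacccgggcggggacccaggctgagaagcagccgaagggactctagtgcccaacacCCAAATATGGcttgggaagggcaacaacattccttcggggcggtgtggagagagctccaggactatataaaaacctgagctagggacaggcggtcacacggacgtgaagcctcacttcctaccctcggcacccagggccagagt
Actc1: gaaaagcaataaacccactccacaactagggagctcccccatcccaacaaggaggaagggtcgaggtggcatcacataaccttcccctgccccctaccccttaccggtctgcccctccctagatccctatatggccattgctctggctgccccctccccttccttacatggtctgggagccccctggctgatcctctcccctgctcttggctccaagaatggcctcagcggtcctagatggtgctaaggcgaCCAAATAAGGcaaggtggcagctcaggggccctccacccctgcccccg
Gsta3: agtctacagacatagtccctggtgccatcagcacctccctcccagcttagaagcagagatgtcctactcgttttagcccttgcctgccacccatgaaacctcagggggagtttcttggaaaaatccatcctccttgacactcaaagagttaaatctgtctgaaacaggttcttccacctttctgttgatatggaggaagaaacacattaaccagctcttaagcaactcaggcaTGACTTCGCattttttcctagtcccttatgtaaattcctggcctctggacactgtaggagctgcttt
Plk1: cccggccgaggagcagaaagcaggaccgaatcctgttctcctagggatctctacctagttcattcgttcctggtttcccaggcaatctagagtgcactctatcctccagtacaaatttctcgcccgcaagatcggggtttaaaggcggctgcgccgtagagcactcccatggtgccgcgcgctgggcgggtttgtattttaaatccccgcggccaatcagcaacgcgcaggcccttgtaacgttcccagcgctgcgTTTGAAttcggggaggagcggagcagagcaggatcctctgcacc
These matches are descriptions of the letters in this window and not measured binding sites.

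Levels below are log2 array intensities, in the order untreated array 1 and 3, then nanoceria array 1, 2 and 3. A difference is the mean of the nanoceria arrays minus the mean of the untreated arrays on the log2 scale, with its standard error (SE) from limma, a linear model fitted across all probe sets. With Benjamini-Hochberg adjustment over the 23188 probe sets, 0 of the 15037 genes (0.0%) had an adjusted p below 0.05, and the smallest was 0.358. Every gene difference below therefore missed the threshold, and each is given as a value with its error. At an unadjusted limma p below 0.05 there were 507 higher genes (3.37%) and 776 lower genes (5.16%), together 8.53%. By sign alone, 57.0% of genes lay higher and 43.0% lower, against 53.1% higher after cyclic loess scaling and 62.3% with equal array medians.

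Before any test, the arrays themselves showed how far replicates of 1 group lay apart. Median intensities ran from 107 to 117. Pearson's r across genes, which are not independent replicates, was 0.967 between the untreated arrays and 0.974 to 0.985 between nanoceria arrays. Across groups it was 0.958 to 0.976, and nanoceria array 2 resembled either untreated array (0.975 and 0.976) more than these resembled each other. Untreated array 3 lay over 2-fold above untreated array 1 in 727 genes (4.83%) and below it in 487 (3.24%). The nanoceria arrays spanned over 1 log2 unit in 1327 genes (8.82%). Untreated arrays 1 and 3 held the lowest level of the 5 arrays in 25.4% and 25.1% of genes. They held the highest in 20.3% and 19.2%, and nanoceria arrays 1, 2 and 3 in 20.5%, 13.3% and 26.7%. These shares are the background for counts of genes highest or lowest on 1 array. The median SE of a gene difference was 0.22.

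Against untreated array 1, the nanoceria mean lay over 2-fold higher in 273 genes (1.82%) and lower in 476 (3.17%). Against untreated array 3, 314 genes (2.09%) lay higher and 584 (3.88%) lower. Both comparisons share the 3 nanoceria arrays. For the group means, 116 genes (0.771%) lay over 2-fold higher and 344 (2.29%) lower. All 3 nanoceria arrays lay above both untreated arrays in 2279 genes (15.2%) and below both in 1767 (11.8%). Such genes are called non-overlapping below, and these 2 percentages are the background for every list. Higher genes made up 56.3% of the non-overlapping genes, 48.9% after cyclic loess scaling and 66.6% with equal array medians, so which direction held more genes depended on the scaling. Leaving out any 1 array raises the number that do not overlap, since fewer levels must agree, and gave 3168 to 4936 higher and 2273 to 3892 lower genes. Without nanoceria array 3, 459 genes lay over 2-fold above untreated array 1. Genes on the lower side had the larger sizes, with a median difference of -0.55 against 0.37 on the higher side.

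**Figure D1:**
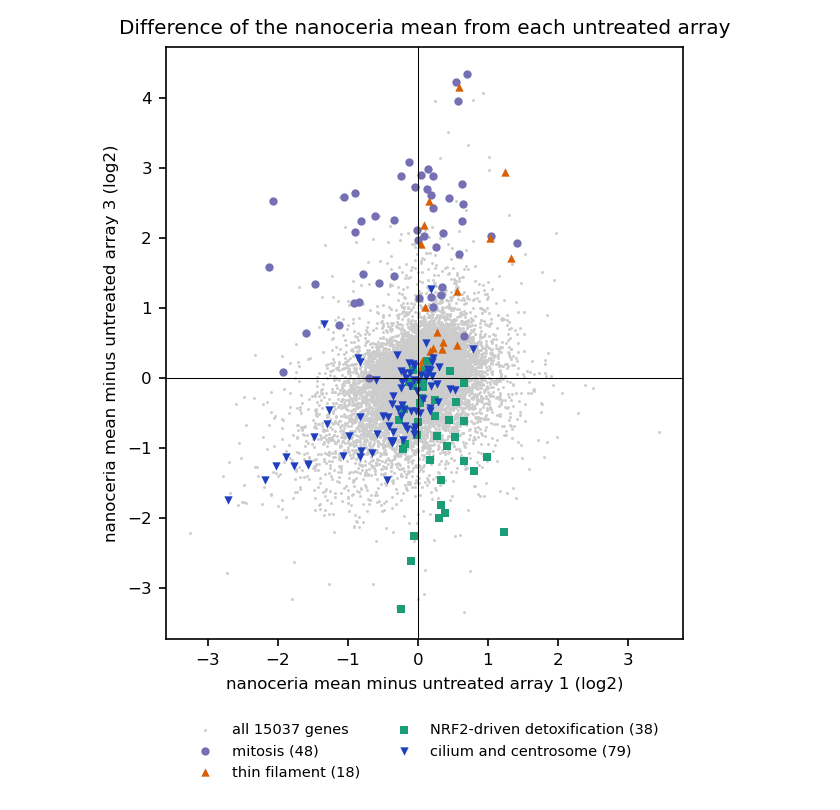
Each point is 1 gene, with the nanoceria mean minus untreated array 1 on the x axis and minus untreated array 3 on the y axis, both in log2 units, and 4 gene lists in colour. Mitosis genes spread far up the y axis around 0 on the x axis and NRF2-driven genes far down it, while many cilium and centrosome genes lie below 0 on both axes.

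The genes with the smallest p were lower with nanoceria and had quite different roles. Trmt13, a tRNA methyltransferase, stood at 6.72 and 6.65 on the untreated arrays and 5.02, 4.87 and 4.92 on the nanoceria arrays. Both groups were tight, over a log2 unit apart, and the difference was -1.74 ± 0.16 (adjusted p = 0.358), or 3.35-fold lower with nanoceria. Vps13a, which moves lipids at membrane contact sites, stood at 6.89 and 6.99 against 4.89, 5.24 and 4.90, a difference of -1.93 ± 0.19. The origin recognition subunit gene Orc2 stood at 8.03 and 7.93 against 6.38, 6.45 and 6.10, and Rb1cc1, which starts autophagosome formation, at 8.39 and 8.26 against 6.61, 7.00 and 6.51. In these 4 genes the lowest untreated level lay well above the highest nanoceria level, and both untreated arrays gave nearly the same difference (for Orc2, -1.72 against array 1 and -1.62 against array 3).

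Another 8 lower genes complete the 12 with the smallest p. Esf1, a nucleolar factor of ribosomal RNA processing, differed by -2.01 ± 0.23, and Krit1, which stabilises vascular endothelial junctions, by -1.83 ± 0.24. Kpna5, an importin that carries cargo into the nucleus, differed by -1.26 ± 0.17. Cacybp, a partner of the calcyclin protein, differed by -1.53 ± 0.22, the zinc finger gene Zfp317 by -1.88 ± 0.25 and the coiled-coil gene Ccdc62 by -2.12 ± 0.30. The last 2 of the 12, Cep83 and Ift74, are cilium genes and are described with their list. All 12 had adjusted p of 0.358, and the smallest in size was Kpna5, at -1.34 against untreated array 1 and -1.18 against array 3.

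The 12 genes that lay higher with the smallest p also had varied roles. Kif18b, a kinesin of the mitotic spindle, stood at 8.51 and 8.00 on the untreated arrays and at 10.24, 10.00 and 9.55 with nanoceria, a difference of 1.68 ± 0.28 (adjusted p = 0.36) or 3.19-fold. Chaf1b, a subunit of the complex that loads histones on new DNA, stood at 9.07 and 8.70 against 10.26, 10.00 and 9.94. Trim28, a co-repressor that works with zinc finger proteins, stood at 9.84 and 10.20 against 11.16, 11.15 and 11.03. The groups were apart by more than either group's spread in these 3 genes, and for Kif18b and Chaf1b untreated array 3 was the lower of the untreated pair.

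Stk38l, a kinase related to those of the Hippo pathway, differed by 1.08 ± 0.18 and Atp2a1, the calcium pump of fast muscle, by 1.48 ± 0.26. Aimp2, a scaffold of the tRNA synthetase complex, differed by 0.99 ± 0.18 and Chst3, a sulfotransferase that builds chondroitin sulfate, by 0.88 ± 0.16. Tubb6, a beta-tubulin, differed by 1.11 ± 0.20 and Dbn1, the actin-binding protein drebrin, by 0.92 ± 0.18. Drc12, of the ciliary dynein regulatory complex, differed by 0.96 ± 0.17, the crystallin gene Crybb1 by 1.08 ± 0.21 and the phosphatase domain gene Pald1 by 0.85 ± 0.16. Adjusted p ran from 0.36 for Kif18b to 0.377 for Dbn1 over these 12 genes. Drc12, Pald1 and Dbn1 had the closest untreated arrays, with Dbn1 at 9.74 and 9.73, and so gave almost the same difference against either.

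**Figure D2:**
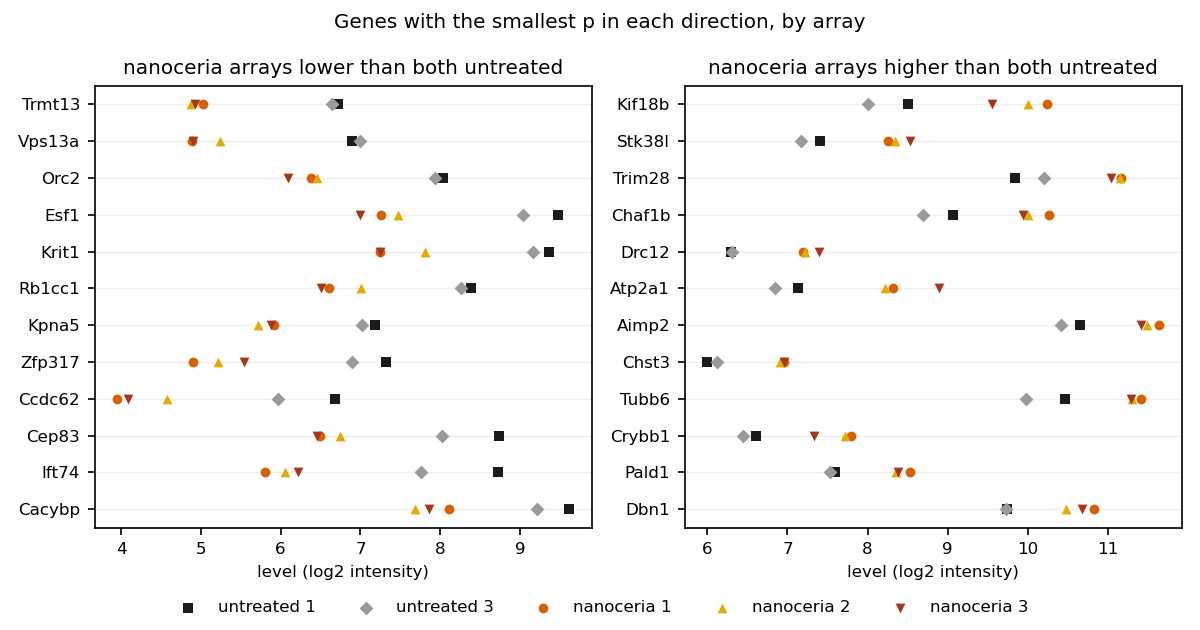
Levels in log2 intensity (x axis) of the 12 lower genes (left) and 12 higher genes (right) with the smallest p among non-overlapping genes, 1 symbol per array. Nanoceria symbols lie wholly to 1 side of the untreated symbols in each gene, as the choice of the genes requires, and the lower genes show the wider gaps.

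Cilium and centrosome genes, found by name pattern, mostly lay lower with nanoceria, whichever untreated array was used. Of 79 genes, 58 lay lower, 31 lay below both untreated arrays on all 3 nanoceria arrays (39.2%, background 11.8%) and 2 lay above. At an unadjusted p below 0.05, 20 were lower (background 5.16%) and 0 higher. The list median was -0.28, with -0.20 against untreated array 1 and -0.39 against array 3, beside 0.05 over all genes. The list holds genes by name, so some members act outside cilia.

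Ift74, a subunit of the particle that carries cargo along cilia, stood at 8.73 and 7.76 against 5.81, 6.05 and 6.21, a difference of -2.22 ± 0.32. Cep83, which docks the mother centriole to the membrane, stood at 8.74 and 8.02 against 6.50, 6.74 and 6.45. Pcm1, the scaffold of centriolar satellites, stood at 8.89 and 8.57 against 7.24, 7.56 and 7.19. In each of them both untreated arrays lay at least a log2 unit above every nanoceria array, and untreated array 1 was the higher. The distal appendage gene Sclt1 differed by -1.64 ± 0.27, the centriole length gene Ofd1 by -1.51 ± 0.31 and the centrosomal gene Cep57 by -1.09 ± 0.20. Kif3a, the motor that pulls ciliary cargo outwards, belongs to the kinesin list and differed by -0.57 ± 0.21.

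Zinc finger genes of the Zfp and Znf families lay lower by smaller amounts. Of 163 genes, 102 lay lower, 52 without overlap (31.9%), and 21 lay higher without overlap (12.9%). At unadjusted p, 37 were lower and 4 higher, and the median was -0.17 (-0.21 against untreated array 1, -0.10 against array 3). Zfp317 stood at 7.32 and 6.89 against 4.90, 5.22 and 5.55 and Zfp458 at 6.56 and 6.34 against 5.37, 5.15 and 5.35. Both lay lower on all nanoceria arrays, and in the whole list 65 genes had their highest level on untreated array 1 and 31 on array 3. Zfp74 differed by -1.13 ± 0.22 and Zfp68 by -1.45 ± 0.29. Trim28, the partner that many of these proteins recruit, went the other way, as given above. Several zinc finger genes are close paralogs, so their probe sets may share signal.

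Genes for tRNA modification had no clear common direction, with a median of -0.01 over 69 genes, and its sign turned with equal array medians. Even so, 17 of them lay lower without overlap (24.6%) against 5 higher. Besides Trmt13, the pseudouridine synthase gene Pus3 differed by -1.16 ± 0.22, the wobble uridine methyltransferase gene Alkbh8 by -1.15 ± 0.23 and the isopentenyltransferase gene Trit1 by -1.29 ± 0.27. Pus3 stood at 8.14 and 8.08 on the untreated arrays and 7.23, 7.01 and 6.62 with nanoceria. Its untreated arrays nearly coincided, and the lowest nanoceria level was on array 3.

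Of 31 DNA repair genes, 3 lay higher and 5 lower without overlap, and the median of 0.03 turned sign against untreated array 1 alone (-0.10). Among the lower ones, the break-sensing genes Nbn and Rad50 differed by -0.92 ± 0.20 and -0.94 ± 0.29, and the end-joining gene Xrcc4 by -0.75 ± 0.26. Of 22 p53 targets, 2 lay higher and 5 lower without overlap. Their median of -0.06 was 0.12 against untreated array 1 and -0.36 against array 3. The feedback inhibitor gene Mdm2 stood at 10.07 and 10.42 against 8.92, 9.36 and 9.46 and Ccng1 at 10.91 and 11.00 against 9.50, 10.15 and 10.28. Both lay lower on all nanoceria arrays and lowest on array 1. The nuclear pore gene Ranbp2 differed by -1.24 ± 0.39 and Nup54 by -0.69 ± 0.20, but of 26 nuclear pore genes 6 lay higher and 3 lower without overlap. Clock and Nr1d2, of the circadian oscillator, differed by -1.22 ± 0.31 and -0.96 ± 0.20, but of 16 clock genes 3 lay higher and 3 lower without overlap.

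Muscle genes mostly lay higher with nanoceria, above all those of the thin filament. All 18 measured thin filament genes lay higher, 10 of 18 without overlap (55.6%, background 15.2%), and 5 had an unadjusted p below 0.05 (background 3.37%). The median was 0.54, but it was 0.25 against untreated array 1 and 0.84 against array 3, and 15 of the 18 genes were lowest on untreated array 3. The sign was positive against each untreated array, and the size rested largely on array 3. In bulk RNA, more muscle-like cells and more of this RNA per cell cannot be told apart.

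The skeletal alpha-actin gene Acta1 stood at 9.21 and 7.52 on the untreated arrays and 10.27, 10.29 and 10.81 on the nanoceria arrays, a difference of 2.09 ± 0.49 (adjusted p = 0.432) or 4.26-fold. All 3 nanoceria levels lay over a log2 unit above untreated array 1, and untreated array 3 lay lower still. The cardiac actin gene Actc1 stood at 8.69 and 8.00 against 8.90, 9.09 and 9.77, close to overlap on nanoceria array 1. Both actin promoters printed above hold a CArG box, that of Actc1 just past its annotated start. They are the 2 that do among the 14 thin filament promoters with an entry. Over all genes 160 of 12435 promoters (1.29%) hold one, but too few thin filament genes have an entry to compare shares. The slow troponin I gene Tnni1 stood at 7.32 and 6.93 against 8.54, 7.92 and 9.49 and the fast troponin T gene Tnnt3 at 7.54 and 6.57 against 8.49, 7.65 and 9.56. Nanoceria array 3 was the highest for all 4 of these genes, and for Tnnt3 array 2 barely cleared untreated array 1. The fast troponin C gene Tnnc2 differed by 0.59 against untreated array 1 and by 4.16 against array 3, and the tropomyosin gene Tpm3 by 0.34 and 0.41.

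Thick filament genes lay higher by less, with 13 of 16 higher and 5 without overlap, and a median of 0.18 (0.07 and 0.38 against untreated arrays 1 and 3). The embryonic light chain gene Myl4 differed by 0.94 ± 0.44 and the fast light chain gene Myl1 by 0.84 ± 0.39. Of the list, 12 genes were highest on nanoceria array 3, such as Myl4 at 8.86, 8.65 and 9.95 on the nanoceria arrays. Without nanoceria array 3 the thin filament median was 0.40, beside 0.54 with it.

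At the Z disc and the membrane, 10 of 20 genes lay higher without overlap and 2 lower. Csrp3, a sensor of stretch at the Z disc, stood at 7.20 and 6.36 against 7.69, 7.56 and 8.50, and the intermediate filament gene Des at 7.12 and 6.64 against 7.54, 7.66 and 7.33. Cav3, of muscle caveolae, differed by 0.71 ± 0.25, the small heat shock gene Hspb7 by 0.64 ± 0.23 and the nemaline myopathy gene Klhl40 by 0.56 ± 0.23. Dystrophin, Dmd, was 1 of the 2 lower genes, at 8.59 and 8.51 against 7.89, 7.92 and 7.46. Its untreated arrays agreed and all nanoceria arrays lay lower, at -0.79 ± 0.21.

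Among excitation genes, the acetylcholine receptor subunit genes stood out. Chrna1 stood at 4.41 and 4.66 against 6.05, 5.58 and 6.90, a difference of 1.64 ± 0.39, and Chrnd at 6.00 and 4.98 against 7.55, 6.55 and 7.83, a difference of 1.81 ± 0.47. Both were highest on nanoceria array 3 and lowest among treated arrays on array 2, and for Chrna1 the difference hardly depended on the untreated array (1.77 and 1.52). Of 12 receptor and synapse genes, 5 lay higher without overlap and 0 lower. The adaptor gene Dok7 differed by 0.57 ± 0.21, while its partner kinase Musk lay at -0.45 ± 0.30 with overlapping groups. In the calcium list 6 of 18 lay higher without overlap. Atp2a1 stood at 7.14 and 6.85 against 8.32, 8.21 and 8.89, and the voltage sensor genes Cacna1s and Cacnb1 differed by 0.44 ± 0.17 and 0.47 ± 0.16.

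Of the regulators, Myog, which commits myoblasts to differentiate, stood at 8.39 and 6.25 on the untreated arrays and 9.39, 8.94 and 9.89 on the nanoceria arrays. The difference of 2.09 ± 0.63 was 1.01 against untreated array 1 and 3.16 against array 3, so its size, not its sign, depended on the untreated array. Tcf12, a partner of myogenic factors, lay at -0.59 ± 0.20 and Tcf3, another partner, at 0.39 ± 0.18. The inhibitor genes Id2 and Id3 went in opposite directions, at -0.75 ± 0.29 and 0.48 ± 0.22. Of 19 regulator genes, 7 lay higher (36.8%) and 4 lower (21.1%) without overlap, with a median of 0.14. Mstn, myostatin, the growth factor that limits muscle mass, stood at 5.96 and 5.86 against 4.99, 5.20 and 5.30, lower on all nanoceria arrays at -0.75 ± 0.18. The fusion and adhesion genes Itga7 and Cdh15 differed by 0.96 ± 0.35 and 0.58 ± 0.25. Muscle energy genes included Pygm, glycogen phosphorylase, at 0.60 ± 0.17, myoglobin, Mb, at 0.86 ± 0.29 and the muscle enolase Eno3 at 0.98 ± 0.36, with 7 of 13 higher without overlap.

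**Figure D3:**
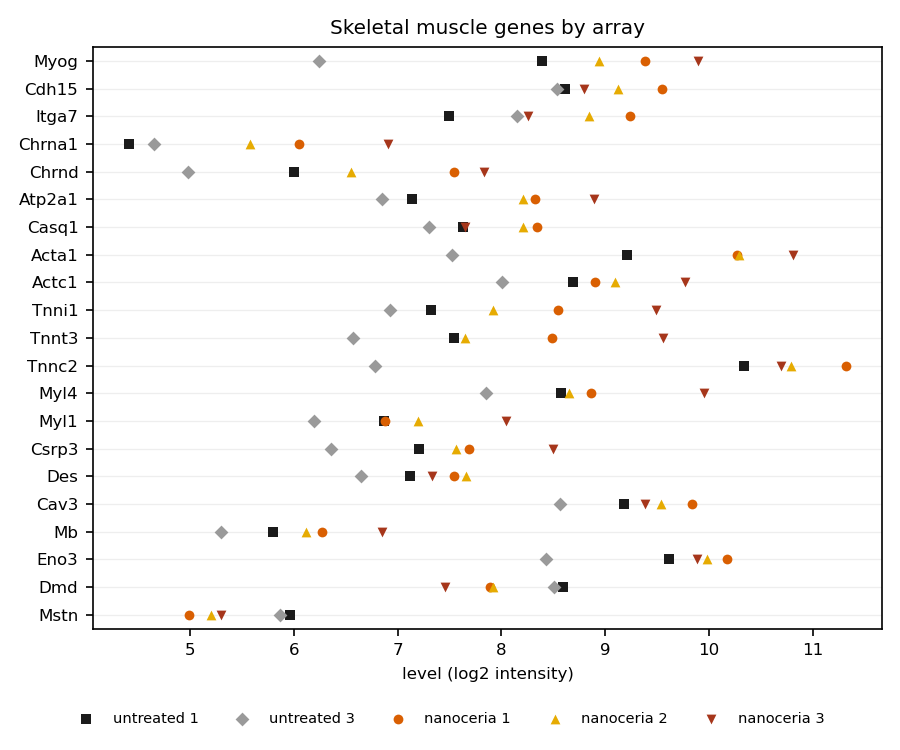
Levels in log2 intensity (x axis) of 21 skeletal muscle genes, 1 symbol per array. Acta1, Chrna1, Atp2a1 and Myog lie higher on all 3 nanoceria arrays and highest on array 3, untreated array 3 is the lowest in most genes, and Dmd and Mstn lie lower with nanoceria.

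Cell type markers were read against the label of a muscle line. All 8 skeletal muscle markers lay higher than the untreated mean, the least by 0.009, and 6 without overlap. Against each untreated array alone 7 of the 8 lay higher, and 6 were lowest on untreated array 3. Their mean level ran from 6.59 on untreated array 3 to 8.07 on nanoceria array 3. Fibroblast markers gave a mean level between 10.6 and 11.2 over the 5 arrays, and the collagen gene Col1a1 stood at 14.18 and 14.10 against 14.14, 14.24 and 14.24. Smooth muscle markers gave 10.40 on untreated array 3 and 11.3 to 11.4 on the others, with smooth muscle actin, Acta2, at 13.44 and 12.60 against 13.30, 13.28 and 13.55. Both genes had overlapping groups. The 8 cardiomyocyte markers gave a median of 0.09, with 1 higher and 0 lower without overlap, and cardiac troponin I, Tnni3, stood at 6.31 and 6.12 against 6.33, 6.52 and 6.26. Endothelial, leukocyte, neural, epithelial and adipocyte lists had mean levels of 3.81 to 5.90 over lists and arrays, and Ptprc, of leukocytes, stood at 4.13 and 4.28 against 4.34, 4.62 and 4.30. The part of cell makeup in the muscle differences was not tested. No detection measure was available, so whether such dim genes were above background is unknown.

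Tubulin genes lay higher as a family. All 15 lay higher than the untreated mean, the least by 0.007, 10 of 15 without overlap (66.7%) and 6 at unadjusted limma p below 0.05. Against untreated array 1 alone, 13 lay higher and 2 lower, and 13 of the 15 were lowest on untreated array 3. The median was 0.72, 0.26 against untreated array 1 and 1.10 against array 3. Tubb6 stood at 10.46 and 9.98 against 11.41, 11.30 and 11.28, Tubb2a at 11.20 and 11.30 against 12.30, 11.95 and 11.76, and Tubb3 at 8.23 and 7.18 against 8.79, 8.61 and 8.60. Tubb6 and Tubb2a lay clear of both untreated arrays on each nanoceria array, whereas untreated array 3 was far lower for Tubb3. Tubg1, gamma-tubulin of the centrosome, differed by 0.72 ± 0.27. Close tubulin paralogs can share probe signal, so single members are less certain than the family.

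Actin regulation and adhesion genes mostly lay higher with nanoceria. Srf itself stood at 8.45 and 7.98 against 9.38, 9.10 and 9.00, a difference of 0.95 ± 0.22, and 11 of 22 genes in its list lay higher without overlap. The list median of 0.32 was 0.16 against untreated array 1 and 0.48 against array 3. Of the 22 genes, 17 were lowest on untreated array 3, and 15 lay higher against untreated array 1 alone. The bundling protein gene Fscn1 differed by 1.09 ± 0.30 and the actin turnover gene Wdr1 by 0.57 ± 0.18. The focal adhesion gene Zyx differed by 0.94 ± 0.39, and by 0.34 to 1.53 when 1 array was left out.

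At focal adhesions, 11 of 29 genes lay higher without overlap and 2 lower. The proteoglycan genes Sdc1 and Sdc3 differed by 0.79 ± 0.18 and 0.68 ± 0.18, the integrin gene Itgb5 by 0.62 ± 0.17 and the adaptor gene Lims2 by 1.26 ± 0.35. Ptk2, focal adhesion kinase, stood at 8.59 and 8.58 against 8.00, 7.95 and 7.62, lower at -0.73 ± 0.19. In the list of Hippo pathway genes the tissue factor gene F3 differed by -0.97 ± 0.21 and Nt5e by -0.67 ± 0.18, against 0.63 ± 0.18 for Ajuba and 0.75 ± 0.29 for Ccn2. The lamin genes Lmna and Lmnb1 stood at 10.85 and 11.47 against 12.39, 12.21 and 11.96 and at 6.41 and 4.45 against 8.07, 7.28 and 6.93. Lmna was lowest on untreated array 1 and Lmnb1 on array 3, so the untreated arrays differed in opposite directions for these 2 lamins.

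Caveolar coat genes Cavin1 and Cavin3 differed by 0.84 ± 0.21 and 0.86 ± 0.19. Among immediate early genes, 25 of 31 lay higher and 10 without overlap, with Klf10 at 0.77 ± 0.24, Fosl1 at 0.50 ± 0.18 and Dusp1 at 0.88 ± 0.35. Fosl1 stood at 8.63 and 8.93 against 9.32, 9.29 and 9.22, higher on all nanoceria arrays and lowest on untreated array 1.

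Glycolysis genes lay higher with nanoceria, led by nanoceria array 2. Of 24 genes, 21 lay higher and 10 without overlap (41.7%), with a median of 0.59 (0.81 against untreated array 1 and 0.28 against array 3). On nanoceria array 2, 17 of the 24 had their highest level, and on untreated array 1, 17 had their lowest. Without nanoceria array 2 the median was 0.38. As a list mean relative to the 5 arrays, nanoceria array 3 (-0.06) lay slightly below untreated array 3 (-0.01), so the separation did not hold for the list as a whole. The enolase gene Eno1 stood at 11.52 and 11.46 against 12.11, 12.62 and 12.16, the isomerase genes Tpi1 and Gpi at 11.71 and 12.47 against 12.90, 13.35 and 12.66 and 11.48 and 11.58 against 11.92, 12.89 and 12.30, and lactate dehydrogenase, Ldha, at 12.14 and 12.69 against 12.91, 13.79 and 12.91. In all 4, array 2 was the highest, and the other nanoceria arrays still lay above both untreated arrays.

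Genes known to respond to hypoxia through HIF1 were also often highest on nanoceria array 2. Of 28, 16 were highest on that array and 2 lay higher without overlap, with a median of 0.05 that was -0.05 against untreated array 3 and -0.08 without nanoceria array 2. Ero1a, a hypoxia-induced oxidase of the endoplasmic reticulum, stood at 6.57 and 8.55 against 7.02, 10.05 and 6.86, and Pdk1, which diverts pyruvate from mitochondria, at 6.59 and 8.86 against 8.10, 10.39 and 7.44. Both showed 1 high nanoceria array and overlapping groups. P4ha2, a collagen prolyl hydroxylase that hypoxia induces, stood at 8.64 and 9.53 against 9.90, 11.18 and 9.40. Hif1a itself lay at -0.95 ± 0.36 and Vegfa at -0.69 ± 0.34, both lower without overlap.

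Elastic fibre, other matrix and collagen chain genes were higher in the main. Of the 31 elastic fibre and other matrix genes, 10 lay higher without overlap and 1 lower, and 19 were highest on nanoceria array 2. Mfap5, of the microfibril, stood at 11.48 and 11.69 against 12.64, 12.39 and 12.35, Emilin1, of the elastic fibre surface, at 9.42 and 9.62 against 10.47, 10.78 and 10.14, and elastin, Eln, at 8.73 and 7.95 against 9.75, 9.84 and 9.07. Each nanoceria level of Mfap5 and Emilin1 lay clear of both untreated arrays by more than the untreated arrays differed. Loxl1, which crosslinks elastin, differed by 0.58 ± 0.18, and Fbln1, fibulin, by 1.01 ± 0.38. Among collagen chains 7 of 20 lay higher without overlap and 0 lower, with Col18a1 at 0.55 ± 0.17 and Col5a1 at 0.58 ± 0.24. Matrix proteases and their inhibitors showed no common shift, with a median of 0.05, the same as over all genes. Of these 25 genes, 14 lay higher and 11 lower, with 5 higher (20.0%) and 1 lower (4.0%) without overlap. Among the higher ones, Adamts4 differed by 1.17 ± 0.33, the urokinase receptor gene Plaur by 0.69 ± 0.25 and Mmp14 by 0.45 ± 0.18.

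**Figure D4:**
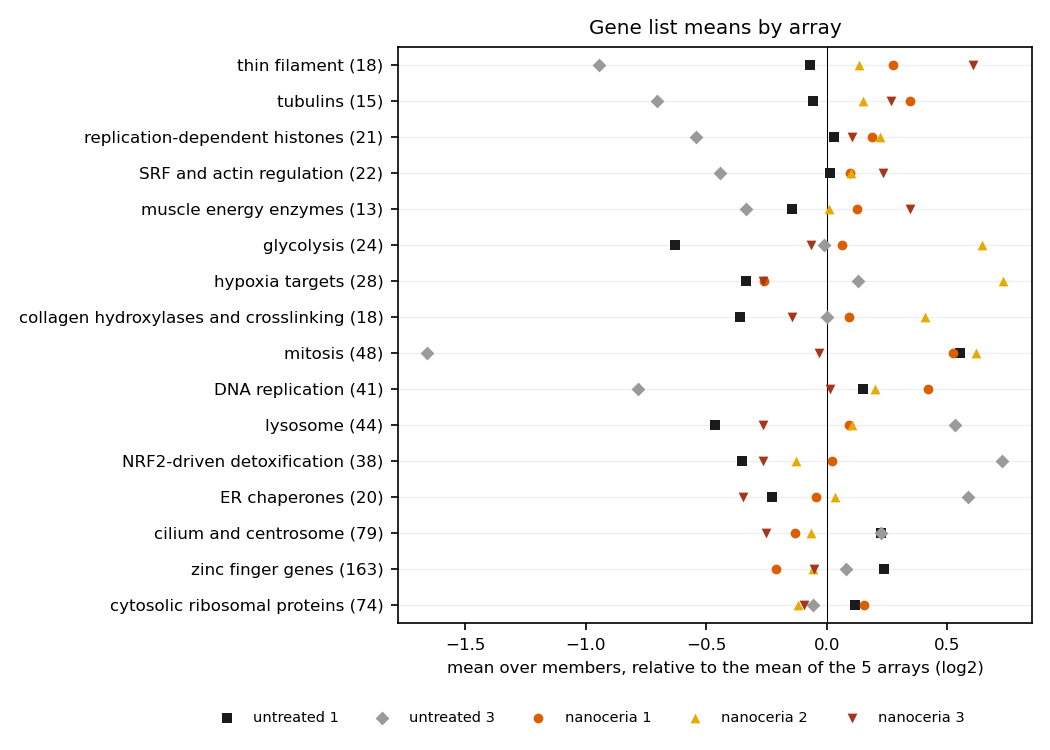
Each symbol is 1 array's mean over the members of a list (count in brackets), relative to the mean of the 5 arrays, in log2 units. Untreated array 3 is far to the left for mitosis and thin filament genes and far to the right for NRF2-driven, lysosome and ER chaperone genes, nanoceria array 2 is to the right for glycolysis and hypoxia genes, and both untreated arrays lie to the right for cilium and zinc finger genes.

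Proliferation genes depended on the untreated array more than any group so far. Of 48 mitosis genes, 42 lay higher with nanoceria and 11 without overlap (22.9%). The median of 0.98 was 0.03 against untreated array 1 and 2.08 against array 3, where 43 of the 48 genes had their lowest level. Against untreated array 1 alone, 26 genes lay higher and 22 lower. The mitotic kinase Plk1 stood at 10.89 and 7.21 against 11.56, 11.50 and 11.25, and Cdc20, which switches on the ligase that starts anaphase, at 9.91 and 6.27 against 10.91, 10.38 and 10.56. For both, untreated array 1 was near the nanoceria arrays and array 3 was the low one.

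Kif20b, a mitotic kinesin, and Arhgap11a stood at 7.45 and 3.74 against 5.41, 5.48 and 5.12 and at 9.23 and 5.54 against 7.92, 8.28 and 8.18. Here the nanoceria arrays lay between the untreated arrays, so the sign of the difference turned with the array chosen. Some proliferation genes lay higher against both. Bub3, of the spindle checkpoint, stood at 9.87 and 9.93 against 10.71, 10.54 and 10.34, Kif22 at 7.67 and 6.69 against 9.45, 8.81 and 7.91, and the cell cycle transcription factor genes Mybl2 and Foxm1 differed by 0.59 and 0.64 against untreated array 1 and by 1.77 and 2.25 against array 3. Bub3 was the one in which the untreated arrays agreed closely.

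DNA replication genes lay higher against both untreated arrays, by 0.20 against array 1 and 1.13 against array 3 at the median. Of 41, 17 lay higher without overlap (41.5%), 4 lower, and 13 were higher at unadjusted p below 0.05. As a list mean, nanoceria array 3 (0.01) lay below untreated array 1 (0.15). The polymerase gene Pold1 stood at 7.51 and 6.57 against 8.98, 8.33 and 8.35 and the helicase gene Mcm2 at 10.29 and 9.49 against 10.94, 10.79 and 10.88. Mcm2 was tight on the nanoceria arrays and Pold1 was highest on array 1. Orc4, an origin recognition gene, stood at 9.97 and 9.80 against 7.11, 8.96 and 7.86 and the clamp loader gene Rfc1 at 7.90 and 8.44 against 7.44, 7.40 and 7.26, both lower like Orc2. Replication-dependent histone genes, most of them in clusters of near-identical copies, had 11 of 21 higher without overlap and a median of 0.53 (0.15 and 0.67).

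Genes of the oxidant response were of interest because of the particle's known chemistry. Those of NRF2-driven detoxification lay lower in 30 of 38 genes, but 4 lay lower without overlap (10.5%, background 11.8%) and 0 at unadjusted p below 0.05. The median of -0.21 was -0.61 against untreated array 3 and 0.15 against array 1, so the sign turned with the untreated array. On untreated array 3, 28 of these genes had their highest level, and 17 had their lowest on array 1. Without nanoceria array 3 the median was -0.11. Gsta3, the glutathione transferase with the response element printed above, stood at 5.34 and 8.40 against 5.51, 5.22 and 4.61, and the quinone reductase Nqo1 at 12.18 and 12.98 against 12.24, 11.81 and 11.87. For Gsta3 the nanoceria arrays lay around untreated array 1, with array 3 alone far higher.

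Akr1c15, an aldo-keto reductase, had the same shape at 6.44 and 9.60 against 6.45, 6.08 and 6.80, and so had the aldehyde oxidase gene Aox1 at 4.94 and 7.46 against 4.60, 4.83 and 5.11. Abcc1, an exporter of glutathione conjugates, and Me1, malic enzyme, lay lower without overlap at -0.56 ± 0.26 and -0.43 ± 0.22. Of the regulators, Nfe2l2, which encodes NRF2, stood at 10.60 and 10.48 against 9.66, 10.27 and 10.52 and its partner gene Keap1 at 7.70 and 7.89 against 8.55, 7.72 and 7.91. Their groups overlapped, at -0.38 ± 0.28 and 0.26 ± 0.28. Cul3, the scaffold of the ligase that marks NRF2 for degradation, stood at 9.02 and 9.39 against 8.26, 8.68 and 8.06 and lay lower on all nanoceria arrays at -0.87 ± 0.25.

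Of 17 genes of glutathione synthesis and cystine supply, 2 lay higher (11.8%) and 3 lower (17.6%) without overlap. Gclm and Gclc, the subunits of the first enzyme, stood at 6.97 and 8.03 against 6.78, 6.46 and 5.83 and at 9.57 and 10.42 against 8.98, 9.55 and 9.43. The cystine importer gene Slc7a11 stood at 6.81 and 7.59 against 6.18, 6.80 and 4.94. All 3 lay lower without overlap, narrowly for Gclc and Slc7a11 on nanoceria array 2, and untreated array 3 was the higher untreated array in each. Cth, which makes cysteine from cystathionine, went the other way at 8.54 and 8.21 against 9.28, 9.08 and 9.12, a difference of 0.78 ± 0.19, with tight groups. The list as a whole had 9 of 17 genes higher, and its median was 0.13 against untreated array 1 and -0.36 against array 3.

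Superoxide and peroxide removal genes showed no common shift, with a median of 0.12 over 35 genes, 4 higher and 6 lower without overlap. The median was 0.20 against untreated array 1 and -0.05 against array 3. Gpx7, a peroxidase of the endoplasmic reticulum, differed by 0.75 ± 0.24, the thioredoxin inhibitor gene Txnip by 1.34 ± 0.51 and the selenoprotein gene Selenow by 0.51 ± 0.22. Oxr1, which protects from oxidative damage, stood at 8.17 and 9.23 against 7.44, 7.89 and 6.50, Sesn3, a sestrin, differed by -0.69 ± 0.24 and Selenop, a selenium carrier, by -1.05 ± 0.42. Selenop is another gene high on untreated array 3 alone, at 6.55 against 5.06 on array 1 and 4.78, 4.69 and 4.80 with nanoceria. Among enzymes that make oxidants, Maoa, monoamine oxidase, stood at 9.71 and 10.87 against 8.58, 8.95 and 8.96 and Xdh, xanthine dehydrogenase, at 9.09 and 9.24 against 8.54, 8.61 and 8.49. Xdh had tight groups and lay lower at -0.62 ± 0.16, and Maoa lay lower at -1.46 ± 0.36 with untreated arrays apart. Nox4, the NADPH oxidase, lay at -0.46 ± 0.23 with overlapping groups. Alox15, Nos3 and Shc1 of the same list lay higher without overlap, at 0.55 ± 0.19, 0.53 ± 0.20 and 0.45 ± 0.18. Of its 21 genes, 11 lay higher and 10 lower, with 3 higher (14.3%) and 5 lower (23.8%) without overlap and a median of 0.11.

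Metal handling genes had a median of -0.06, with 17 of 28 highest on untreated array 3. Of the 28, 10 lay higher and 18 lower, with 2 higher (7.14%) and 4 lower (14.3%) without overlap. Against untreated array 1 the median was 0.06 and against array 3 it was -0.33. Ireb2, which regulates iron-handling messages when iron is short, stood at 8.32 and 7.45 against 6.10, 6.86 and 6.83, lower without overlap. The zinc exporter genes Slc30a1 and Slc30a4 differed by -0.31 ± 0.16 and -0.60 ± 0.24 and the ferritin heavy chain gene Fth1 by -0.32 ± 0.18. Heph went the other way, at 0.54 ± 0.28 with overlapping groups. Slc40a1, the iron exporter ferroportin, stood at 10.59 and 12.85 against 10.83, 11.01 and 9.78, with only untreated array 3 standing out.

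Lysosome genes, of interest since particles are taken up into these organelles, were placed almost wholly by the untreated arrays. The median over 44 genes was 0.39 against untreated array 1 and -0.64 against array 3, and -0.01 against their mean. On untreated array 3, 33 were highest and on array 1, 27 lowest, and 3 lay higher and 3 lower without overlap. The proton pump gene Atp6v1a stood at 9.30 and 10.60 against 9.23, 9.40 and 9.35, level with untreated array 1. Mitf, a regulator of lysosome genes, differed by -0.58 ± 0.23. ER chaperone genes had the same arrangement, with 16 of 20 highest on untreated array 3 and medians of 0.12 and -0.64. Hspa5, the main chaperone of the endoplasmic reticulum, stood at 12.01 and 13.24 against 12.17, 12.22 and 11.86.

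Autophagy genes lay lower in 21 of 31, 7 without overlap, with a median of -0.13 that was 0.06 against untreated array 1. Besides Rb1cc1, the cargo receptor gene Tax1bp1 stood at 9.98 and 10.10 against 8.51, 9.38 and 8.67, lower on all nanoceria arrays, while the LC3 gene Map1lc3a differed by 0.56 ± 0.21. Rab5a, of early endosomes, differed by -1.07 ± 0.27, while of 36 endocytosis genes 25 lay higher, with 7 higher (19.4%) and 3 lower (8.33%) without overlap. The endocytosis median was 0.235, with 0.28 against untreated array 1 and 0.01 against array 3. In the heat shock list, Hspa4 stood at 9.89 and 9.90 against 8.61, 9.29 and 8.57, a difference of -1.07 ± 0.26, and the small heat shock gene Hspb1 differed by 0.66 ± 0.27.

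Lipid genes showed a few separated members. Dhcr7, the last enzyme of cholesterol synthesis, stood at 5.75 and 6.06 against 7.54, 6.72 and 7.20, a difference of 1.25 ± 0.28, higher against each untreated array by over a log2 unit at the mean. Of 21 cholesterol genes 17 lay higher but 4 without overlap (19%), and the median was 0.37 against untreated array 1 and 0.11 against array 3. The fatty acid desaturase genes Fads1 and Fads2 differed by 0.63 ± 0.20 and 1.13 ± 0.31, against -0.86 ± 0.23 for the elongase gene Elovl6. Fads1 stood at 10.65 and 10.64 against 11.16, 11.55 and 11.11, with untreated arrays that coincided.

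Il6 stood at 8.63 and 8.21 against 7.51, 7.70 and 6.88, lower on all nanoceria arrays at -1.06 ± 0.29, and its feedback inhibitor gene Socs3 at 5.54 and 5.71 against 6.39, 6.07 and 6.41, higher at 0.66 ± 0.19. Over the 36 inflammation genes the median was 0.07, with 5 higher and 4 lower without overlap, near the background. Of 31 interferon response genes 7 lay lower without overlap, such as Ifit2 at -0.72 ± 0.18 and Ifih1 at -0.90 ± 0.25, and the list median of -0.02 changed sign with equal array medians. Casp12 and Casp4, caspases of the inflammatory group, differed by -1.06 ± 0.24 and -1.44 ± 0.56, and the apoptotic caspase gene Casp9 by 0.85 ± 0.25.

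Respiratory chain and ribosomal genes lay close to the background. Complex I genes numbered 40, with 5 higher and 3 lower without overlap. Cox7b, a subunit of cytochrome oxidase, was an exception at 12.10 and 11.89 against 11.21, 11.01 and 11.04, and Cox8b, a subunit typical of striated muscle, at 5.48 and 5.26 against 6.22, 6.15 and 6.43. They went in opposite directions, at -0.91 ± 0.17 and 0.89 ± 0.18, each with tight groups. Cytosolic ribosomal protein genes had a median of -0.03 over 74, with 7 higher and 9 lower without overlap, and the sign turned with equal array medians. On nanoceria array 1, 47 of 65 mitochondrial ribosomal, 29 of 44 proteasome and 28 of 40 complex I genes had their highest level, against 20.5% of all genes. Tfb2m, a mitochondrial transcription factor, differed by -0.86 ± 0.18 and the fission gene Dnm1l by -0.96 ± 0.37, and among splicing genes Sf3b4 differed by 1.06 ± 0.22 and Rbm39 by -1.30 ± 0.32.

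Some genes separated the untreated arrays while the nanoceria arrays stayed together. Clu, the secreted chaperone clusterin, stood at 8.29 and 12.28 on the untreated arrays and 9.25, 8.74 and 8.85 with nanoceria. Igfbp5, which binds insulin-like growth factors in muscle, stood at 9.18 and 12.36 against 9.05, 9.16 and 9.61, and the cell adhesion gene Nrcam at 4.66 and 8.15 against 5.44, 5.59 and 5.15. In all 3, untreated array 3 was over 2 log2 units above every other array. Flot2, a membrane raft protein, showed the reverse at 5.22 and 9.44 against 9.14, 8.55 and 8.32, with untreated array 1 alone low. The histone chaperone gene Asf1b stood at 10.27 and 6.56 against 10.61, 10.52 and 10.41, low on array 3 only. For such genes the difference from the untreated mean describes neither untreated array.

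Treated arrays also varied among themselves. Spopl, an adaptor of the CUL3 ligase, stood at 3.99, 6.65 and 7.32 on nanoceria arrays 1, 2 and 3, against 7.40 and 7.22 without treatment, and Hsd11b1, which activates glucocorticoids, at 9.28, 9.94 and 6.62 against 8.63 and 8.31. Spopl was low on array 1 alone and Hsd11b1 on array 3 alone. Tmem19 and the lipoprotein receptor gene Vldlr were lowest on array 3 as well, with ranges of 3.20 and 3.15 log2 units, and Ero1a and Pdk1 were highest on array 2. Array 3 held the highest level of the 5 arrays in 26.7% of genes and array 2 in 13.3%. What set these arrays apart was not tested.

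**Figure D5:**
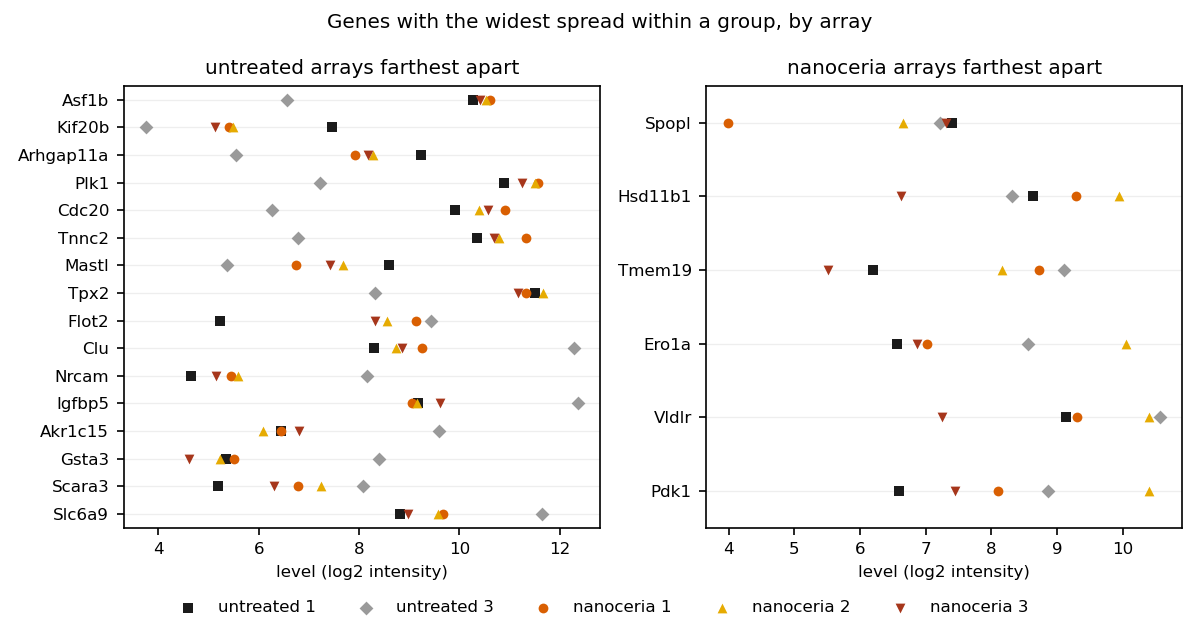
Levels in log2 intensity (x axis) of the 16 genes whose untreated arrays lay farthest apart while the nanoceria arrays spanned under 1 log2 unit (left), and of the 6 genes with the widest range over nanoceria arrays (right), 1 symbol per array. On the left the nanoceria symbols cluster, near untreated array 1 in some genes (Plk1, Gsta3) and between the untreated arrays in others (Kif20b, Scara3).

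Promoter sequence was described for the 12435 of 15037 genes (82.7%) with an entry. The median GC content was 60.7% for lower non-overlapping genes, 59.0% for higher ones and 58.0% for all, with 21, 17 and 16 CG pairs per promoter. The CHR letters TTTGAA, searched on both strands like every motif here, were in 65.9% of 41 mitosis promoters and 15.2% of all, and CCAAT in 73.2% and 37.9%. Tubulin promoters held CCAAT in 73.3% of 15. The antioxidant response element core TGACNNNGC was in 25.8% of 31 NRF2-driven promoters and 13.4% of all. Cilium and centrosome promoters, 70 with an entry, held CCAAT in 38.6% and CHR in 18.6%, near the shares of all genes. Only 77.8% of thin filament and 77.3% of SRF genes had an entry, too few for a share of CArG boxes.

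Whether the ground differences were particular to the ground was tested by the interaction with regime over all 8 arrays, in which 1 untreated array stands for space. By limma, after Benjamini-Hochberg adjustment, 0 genes (0.0%) passed and 357 (2.37%) had an unadjusted p below 0.05. In space, Trmt13 stood at 7.26 on the untreated array against 6.12 and 6.41 on the nanoceria arrays. Acta1 stood there at 9.64 against 8.69 and 9.22, and Ift74 at 8.25 against 8.11 and 7.66. Trmt13 and Ift74 thus lay lower with nanoceria in space too, and Acta1 lay lower there instead of higher, but with 1 untreated array these values have no spread of their own. A missed threshold does not show that nanoceria acted alike in both regimes.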

How the data were processed

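Every sample had its own rat Clariom S Pico array. The deposited values are array intensities on a linear scale, made by the authors with RMA, per the submitters' processing notes. RMA usually corrects background, quantile-scales the arrays and summarises probes. The RMA software and settings are not given in the sources used here. That the intensities are linear was read from their range, and log2 was taken without a pseudocount. A linear model (limma 3.58.1 in R 4.3.3, lmFit and eBayes) was fitted to the 5 ground arrays over 23188 probe sets, which leaves 3 residual degrees of freedom, with p-values adjusted by the Benjamini-Hochberg method at a threshold of 0.05. The fit was tested on simulated data. Probe sets were named from the platform's annotation, and a gene with several was represented by the brightest.

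The members and the 73 gene lists were chosen with earlier results of these data known. Genes were named by rule: the 12 smallest p in each direction among non-overlapping genes, up to 6 per list, the 16 with untreated arrays farthest apart while nanoceria arrays spanned under 1 log2 unit, and the 6 with the widest nanoceria range. Genes printed with their promoters, and the marker and regulator genes whose groups overlapped, were picked as examples, Plk1 after its values were seen. Promoters came from RefSeq (GRCr8), using the first listed start of each gene. Replicate numbers were not taken as pairs in the main fit. Their deviations from group means correlated at -0.30 for number 1 and -0.35 for number 3. Protein sequences were not used here. The alternatives tried were other scalings, a filter on dim probe sets, other variance models, array weights, all 8 arrays in the fit, a replicate block, and leaving out each array.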

Additional observations from a re-analysis of the deposited data

How the results depend on the processing

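No gene passed an adjusted p of 0.05 (limma, Benjamini-Hochberg) under any alternative run, and the smallest adjusted p for Trmt13 was 0.0892, with all 8 arrays in the fit, against 0.852 with the replicate block. Counts at unadjusted limma p below 0.05 were 348 to 472 higher and 532 to 757 lower genes when 1 nanoceria array was left out. They were 181 higher and 564 lower genes with the replicate block, which treats arrays of equal number as pairs. Nanoceria array 2 has no untreated partner there and adds nothing to the differences, and fewer residual degrees of freedom remain than in the main fit. The block values therefore do not test whether the replicates are paired. Genes past 1.5-fold numbered 1304 higher and 1396 lower against untreated array 1, and 1015 and 1592 against array 3. Leaving out 1 array gave 3168 to 4936 higher and 2273 to 3892 lower non-overlapping genes. It gave 209 to 459 higher and 386 to 633 lower genes past 2-fold against untreated array 1, and 330 to 359 and 497 to 756 against array 3. For these medians and genes the sign turned when an untreated array was left out, and for glutathione synthesis also without nanoceria array 1 (-0.12) or 2 (-0.049). Autophagy ran from -0.31 to 0.057, glutathione synthesis from -0.36 to 0.13 and smooth muscle markers from -0.061 to 0.78. Medians of other lists crossed 0 as well, among them p53 targets (-0.36 to 0.12), metal handling (-0.33 to 0.064) and superoxide and peroxide removal (-0.047 to 0.20). Hspa5 ran from -1.16 to 0.080, Atp6v1a from -1.27 to 0.022, Igfbp5 from -3.08 to 0.095 and Acta2 from -0.061 to 0.78. Cyclic loess turned Col1a1 to -0.082. A mean in place of the median turned the neural marker list to -0.18, and the brighter probe sets alone turned it to -1.42. Apart from the untreated arrays left out, the cause was not tested. With 2 untreated arrays and no detection calls, small differences and dim genes are the least certain.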
